A study of Rattus norvegicus with 22 samples.

Results

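Castrated male rats and ovariectomized female rats were compared for what still differed in the ventral cervical spinal cord with the gonads gone. The genes compared were those with at least 1 read in both groups, 21278 of the 32883 genes in the count table. A further 1069 genes had reads in castrated males alone of these 2 groups, 1226 in ovariectomized females alone, and 9310 in neither. All animals were young-adult Sprague-Dawley rats. The castrated males (GDX, n = 5) and the ovariectomized females (OVX, n = 6) had received buprenorphine and isoflurane for surgery, and their cords were taken a fortnight later. Age-matched intact males (n = 5) and intact females (n = 6), for which no sham surgery is described, served for comparison. After perfusion with saline, the ventral part of segments C3 to C6 was kept and 1 RNA library was made per rat. All GDX and OVX libraries belong to the shorter of the 2 average input fragment size classes, as do 2 of the intact males and 2 of the intact females. The number of counted reads had a median of 15645521 in GDX rats (14632278 to 16955037) and of 14766802.5 in OVX rats (12371756 to 17571887), with a two-sided exact permutation p = 0.511. In GDX rats 14254 ± 34.6 genes (SD, n = 5) and in OVX rats 14275 ± 81.2 genes (SD, n = 6) reached 1 CPM, the read count scaled to a fixed library size, with an exact permutation p = 0.628, where 0.00433 is the smallest the design allows.

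Castration removes the testes, the main source of testosterone, and ovariectomy removes the ovaries, the main source of estradiol and progesterone. What remains different between such animals includes their sex chromosomes, hormones from other glands, the traces of earlier gonadal hormones and the kind of surgery. Ovariectomy went through skin and muscle on both sides and castration through the scrotum, so the kind of surgery cannot be told apart from sex here. Female cells silence most genes on 1 of their X chromosomes, but some genes escape, and several of the escaping genes have a related copy on the Y chromosome. Reads were counted from whole tissue, so fewer cells of a type and less RNA per cell cannot be told apart.

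The Y-linked genes matched the labels. Eif2s3y (ENSRNOG00000060048), the Y-linked copy of an initiation factor subunit, had 40.1, 44.2, 50.4, 45.5 and 49.0 CPM in GDX 1, 2, 4, 5 and 6. It had 3511 reads over the GDX rats and 0 over the OVX rats, which is at least 1375-fold higher when the OVX group is set to a floor of 3 reads over the group. Kdm5d (ENSRNOG00000060496), a Y-linked histone demethylase, had 2761 reads against 0, at least 1081-fold higher by the same floor. A gene listed as Ddx3 (ENSRNOG00000057231), a name that RefSeq gives both to a gene on chromosome 13 and as a synonym of Y-linked Ddx3y, had 7686 reads against 0 and was at least 3010-fold higher. AC239701.4 (ENSRNOG00000062152), with no other name in the table, had 188 reads against 0, at least 73.6-fold higher. In the other direction, AABR07039356.2 (ENSRNOG00000051257) had 0 reads in GDX rats and 8545 in OVX rats, at least 2424-fold higher in OVX rats, and lay between 85.5 and 102 CPM in each of the 6. Gm27733 (ENSRNOG00000055225) had 0 against 984 reads, at least 279-fold higher in OVX rats. No gene of the table bore the name Xist. The gene listed as Ddx3y (ENSRNOG00000002501) had reads in both sexes, 52 over the GDX rats and 93 over the OVX rats, and did not separate them. These intervals and floors, and those further on, cover counting error only. The 6 genes at 0 in one group passed the filter on low counts but are not members, and the other 2289 such genes stayed under the filter, with at most 94 reads over a group.

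Of the 15078 members that passed the filter on low counts, 29 differed between GDX and OVX rats (0.192% of those tested) by the quasi-likelihood test of edgeR, called at an adjusted p under 0.1. Of these, 14 were higher in GDX rats (0.0929%) and 15 were lower (0.0995%). At an adjusted p under 0.01 there were 11 and at 0.001 there were 6, while 1407 members (9.33%) had an unadjusted p under 0.05. Most differences were small, with a log2 fold change under 0.4 in size for 16 of the 29 and over 1 for 7. Log2 fold changes are given as GDX minus OVX throughout. The median over all tested members was 0.00, and 50.1% of them were negative. The 2 groups of rats did not overlap in 27 of the 29 genes, the exceptions being AABR07042937.1 and Nup210l, against 198 of all tested members (1.31%). Of the 29, 5 passed the filter on low counts, which asks for 5 rats over a level, by the group where they are high and not by the other. Of all tested members, 553 passed by 1 group alone. AC241873.1, AC239701.1 and LOC680227 had 0 rats over that level in the lower group, so that they had to differ, while Nup210l had 1 of 5 GDX rats and AABR07042937.1 3 of 6 OVX rats over it. Without such members the groups did not overlap in 24 of 24 called genes, against 185 of 14525 (1.27%). Called genes were chosen by their p in these same rats, so lack of overlap largely follows from the call and is no separate support. The count of 29 was 19 without GDX 4, 19 without GDX 5, 18 without GDX 6, 17 without OVX 1 and 19 without OVX 6. It was 124 with DESeq2, 85 with edgeR's likelihood ratio test, 83 with its exact test, 55 with all 22 rats in 1 fit and 166 with the meninges and fibroblast level as a term, and each of these but the fit of 22 rats held all 29. With the rat number as a block there were 18 genes, 13 of them among the 29, with 4 higher in GDX rats and 14 lower. That fit held only rats whose number occurs in both groups, so OVX 3 was left out of it. The 166 genes called with the meninges and fibroblast level as a term were 38 higher and 128 lower. With those 5 genes set aside, 6 were called in each alternative and each fit without 1 rat, namely Eif2s3, Pbdc1, Kdm6a, Kdm5c, Ddx3x and AABR07041096.1. Of the 5, AC241873.1, AC239701.1, LOC680227 and AABR07042937.1 were also called in each. For the first 3 this says nothing of stability, and AABR07042937.1 too had passed the filter by the GDX rats alone.

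The X chromosome held 5 of the genes that were lower in GDX rats and none that were higher, by the positions that RefSeq gives to these symbols in the assembly GRCr8. All 5 separated the 10 males from the 12 females of the series without overlap. Eif2s3 (ENSRNOG00000060793) encodes the gamma subunit of eIF2, which brings the initiator tRNA to the ribosome. It had 79.2, 80.8, 93.1, 80.1 and 84.0 CPM in GDX 1, 2, 4, 5 and 6, and a lowest, median and highest value of 117, 123 and 135 CPM in OVX rats. Each OVX rat was above each GDX rat, and the log2 fold change was -0.57 (SE 0.05 and adjusted p = 1.52e-05). Kdm6a (ENSRNOG00000052721), which removes methyl groups from lysine 27 of histone H3, had 24.5, 22.7, 28.6, 25.5 and 22.7 CPM in the same GDX rats. In OVX rats its lowest, median and highest values were 32.0, 35.9 and 38.8 CPM, again with no overlap, and its log2 fold change was -0.53 (SE 0.07 and adjusted p = 0.00124). Kdm5c (ENSRNOG00000057706), a demethylase of lysine 4 of histone H3, had 51.2, 51.6, 47.2, 55.4 and 49.2 CPM in GDX rats. Its values in OVX rats ran from 58.7 over a median of 65.8 to 69.3 CPM, so that each OVX rat lay above the highest GDX rat, GDX 5, and the log2 fold change was -0.35 (SE 0.05 and adjusted p = 0.00863).

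Ddx3x (ENSRNOG00000023383), an RNA helicase that acts in translation, had 243, 261, 299, 280 and 276 CPM in GDX 1, 2, 4, 5 and 6. In OVX rats the lowest, median and highest values were 326, 341 and 378 CPM. GDX 4 was the highest of the males and still lay under each OVX rat, and the log2 fold change was -0.34 (SE 0.05 and adjusted p = 0.00863). Pbdc1 (ENSRNOG00000002662) had 17.3, 18.8, 18.8, 18.8 and 20.8 CPM in the GDX rats and 25.6, 28.7 and 32.3 CPM as the lowest, median and highest of the OVX rats. It had the lowest log2 fold change of the 5, -0.61 (SE 0.07 and adjusted p = 0.000343). Over the 11 fits without 1 rat, the highest adjusted p of these genes was 0.0442, for Ddx3x without GDX 2.

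**Figure D1:**
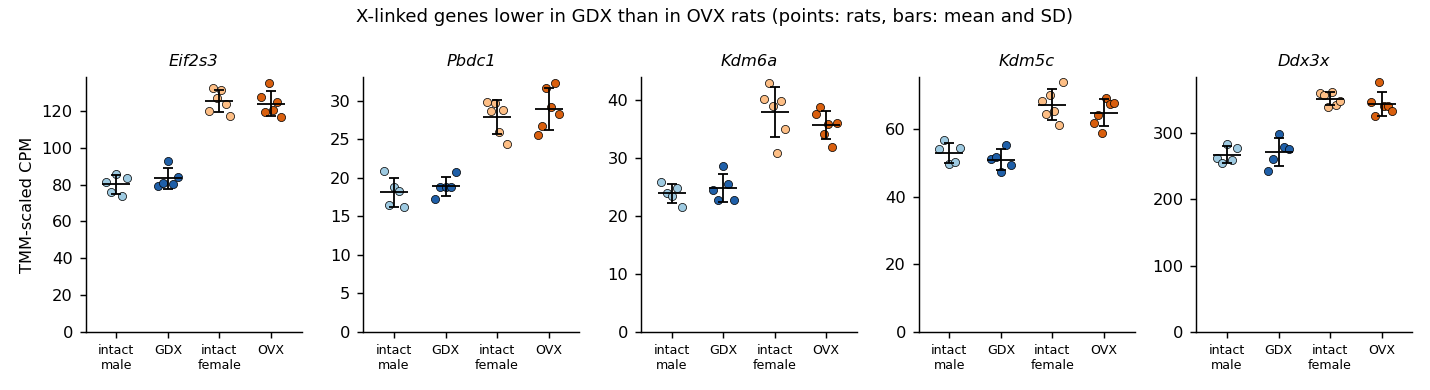
Levels of 5 X-linked genes in each rat, as CPM scaled by TMM factors on the vertical axes from 0, for intact males, GDX, intact females and OVX rats on the horizontal axes. Points are rats and bars are the mean with SD, and in each panel all 10 males lie under all 12 females, as for Eif2s3 with males up to 93.1 CPM and females from 117 CPM.

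Promoters of 2 X-linked genes that were lower in GDX rats and of their Y-linked copies are shown because each pair divides between the sexes. The sequences are from RefSeq, build GRCr8, 250 bases before to 50 after the start of the gene, and entries were matched by symbol for 4 of the 5 X-linked genes, with none for Kdm6a. Capitals mark the core motif of YY1 (AANATGGC) and the GC box (GGGCGG), each sought on both strands. The windows are chrX:62933650-62933949 on the minus strand for Eif2s3 and chrY:944403-944702 on the plus strand for Eif2s3y. Those of the other pair are chrX:24824624-24824923 for Kdm5c and chrY:564236-564535 for Kdm5d, both on the plus strand.
Eif2s3: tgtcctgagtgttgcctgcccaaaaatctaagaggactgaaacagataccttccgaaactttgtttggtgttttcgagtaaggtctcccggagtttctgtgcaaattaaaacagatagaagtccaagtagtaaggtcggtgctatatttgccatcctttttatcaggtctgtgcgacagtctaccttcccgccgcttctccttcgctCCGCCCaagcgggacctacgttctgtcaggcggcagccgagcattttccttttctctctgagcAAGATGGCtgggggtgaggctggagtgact
Eif2s3y: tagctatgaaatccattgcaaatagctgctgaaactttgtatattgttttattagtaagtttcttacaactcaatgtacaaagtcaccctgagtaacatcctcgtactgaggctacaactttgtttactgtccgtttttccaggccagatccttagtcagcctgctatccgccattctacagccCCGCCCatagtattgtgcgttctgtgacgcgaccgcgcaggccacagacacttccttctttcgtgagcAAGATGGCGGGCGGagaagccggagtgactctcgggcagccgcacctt
Kdm5c: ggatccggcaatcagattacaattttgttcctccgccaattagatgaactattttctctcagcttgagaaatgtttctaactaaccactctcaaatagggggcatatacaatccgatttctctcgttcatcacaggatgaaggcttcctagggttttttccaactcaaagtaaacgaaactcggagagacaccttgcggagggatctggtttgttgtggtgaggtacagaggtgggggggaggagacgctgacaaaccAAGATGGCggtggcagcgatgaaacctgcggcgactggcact
Kdm5d: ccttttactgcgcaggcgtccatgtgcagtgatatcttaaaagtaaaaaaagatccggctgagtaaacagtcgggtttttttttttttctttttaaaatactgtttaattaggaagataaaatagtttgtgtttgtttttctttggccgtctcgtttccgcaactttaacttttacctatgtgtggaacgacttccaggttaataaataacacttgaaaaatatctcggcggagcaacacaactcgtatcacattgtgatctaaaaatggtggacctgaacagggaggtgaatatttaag
The YY1 core was found in 6.96% of all 33469 promoters and in 7.89% of the 1141 on the X chromosome, and the GC box in 33.1% and 32%. Eif2s3 and Kdm5c held the YY1 core 1 time each, as did Eif2s3y, while Kdm5d, Pbdc1 and Ddx3x had no match in this window. A match is a description of the letters and not a shown binding site.

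The list of X-linked genes with a Y-linked partner had 11 tested members, of which 4 were lower in GDX rats (Eif2s3, Kdm6a, Kdm5c and Ddx3x) and 0 were higher, where 0.0995% of all tested members were called lower and 0.0929% higher. The other 7 were not called and lay between a log2 fold change of -0.02 for Uba1, a ubiquitin-activating enzyme, and 0.19 for Zfx, a zinc finger transcription factor (adjusted p = 0.435). Usp9x, a deubiquitinase, had 454 ± 31.1 CPM (SD, n = 5) in GDX rats and 430 ± 26.8 CPM (SD, n = 6) in OVX rats. The list median was 0.03, beside 0.00 over all members. Among 8 tested genes of X inactivation and escape, 1 was lower, Pbdc1, and among 206 other X-linked genes 1, Kdm6a, which stands in both this list and that of the partners, beside the same 0.0995% of all tested members. Over all 403 tested members placed on the X chromosome the median log2 fold change was also 0.00, and 5 were called (1.24%), against 15 of 12426 on autosomes (0.121%) and 9 of 2248 without a chromosome match or of the mitochondrial genome (0.4%). A chromosome was assigned to 85.1% of tested members.

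Reads were also summed for 3 pairs, as read totals that take no account of gene length. In 2 of them an X-linked gene was taken with its Y-linked copy, and in the third Ddx3x with the gene listed as Ddx3, whose locus is open. Eif2s3 and Eif2s3y together had 129 ± 9.34 CPM (SD, n = 5) in GDX rats, while Eif2s3 alone had 124 ± 6.81 CPM (SD, n = 6) in OVX rats. The sums ran from 119 to 144 CPM in GDX rats and overlapped the OVX range of 117 to 135 CPM. Kdm5c and Kdm5d together had 87.0 ± 2.94 CPM in GDX rats against 64.8 ± 4.05 CPM for Kdm5c in OVX rats. These sums did not overlap, with at least 83.3 CPM in each GDX rat and at most 69.3 CPM in each OVX rat. Ddx3x with the gene listed as Ddx3 had 372 ± 30.2 CPM in GDX rats, and Ddx3x had 345 ± 17.9 CPM in OVX rats, with overlap. No test was made of these sums, which were formed after the values were seen.

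Several members with no gene name in the table were near 0 in one group. AC241873.1 (ENSRNOG00000060617) had 13.3, 15.3, 17.7, 13.5 and 17.7 CPM in GDX 1, 2, 4, 5 and 6, and 1 read in all OVX rats together, in OVX 4. The ratio of 1190 reads to 1, scaled for library size, was 1398 with a 95% interval of 250 to 55277. AC239701.1 (ENSRNOG00000060437) had 398 reads in GDX rats and 2 in OVX rats, both in OVX 1, a ratio of 234 (95% interval 64.3 to 1938). Neither gene had a read in an intact female. LOC680227 (ENSRNOG00000037911) went the other way, with at most 0.231 CPM in each GDX rat and 3.41, 3.82 and 4.56 CPM as the lowest, median and highest of the OVX rats. It had 12 reads in GDX rats and 352 in OVX rats, 24.96-fold higher in OVX rats (95% interval 14.1 to 48.8). For these 3 genes reads are given without a p. AABR07041096.1 (ENSRNOG00000054795) had 15.8, 12.5, 13.4, 13.7 and 13.2 CPM in GDX rats against 6.97, 7.97 and 9.19 CPM as the lowest, median and highest of the OVX rats. It separated the sexes without overlap in intact rats too, and its log2 fold change was 0.80 (SE 0.09 and adjusted p = 0.000338).

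AABR07042937.1 (ENSRNOG00000052015) had 4.05, 1.27, 3.37, 4.33 and 5.60 CPM in GDX 1, 2, 4, 5 and 6 and ran from 0.446 over a median of 0.679 to 1.36 CPM in OVX rats. GDX 2 lay within the range of the OVX rats and the other 4 above it, and the log2 fold change was 2.32 (SE 0.35 and adjusted p = 0.00562). This gene had passed the filter on low counts by the GDX rats alone, with 3 of 6 OVX rats over the filter's level. AABR07000402.1 (ENSRNOG00000055836) had 6.04, 11.7, 6.34, 7.02 and 5.41 CPM in GDX rats and 12.5, 16.8 and 43.5 CPM as the lowest, median and highest of the OVX rats, the highest being OVX 3. Its log2 fold change was -1.49 (SE 0.30 and adjusted p = 0.0759), and the call was lost without GDX 1, 4, 5 or 6 or without OVX 2 or 5 (adjusted p from 0.123 to 0.225) and in the fit of all 22 rats (adjusted p = 0.442). AABR07044900.1 ran from 34.9 to 39.7 CPM in GDX and from 28.0 to 31.5 CPM in OVX rats, and AC106605.1 from 17.3 to 20.5 and from 13.5 to 15.99 CPM. Both were higher in GDX rats, by 0.31 (adjusted p = 0.0166) and 0.38 (adjusted p = 0.0248) on the log2 scale. Both kept the call in each fit without 1 rat and lost it with the rat number as a block (adjusted p = 0.177 and 0.207).

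Genes placed on autosomes made up 15 of the 29, with 7 higher and 8 lower in GDX rats. Tnfsf10 (ENSRNOG00000013269), the death ligand TRAIL, was low in both groups, with 3.52, 2.31, 2.70, 2.34 and 2.35 CPM in GDX 1, 2, 4, 5 and 6 and 3.69, 4.90 and 5.45 CPM as the lowest, median and highest of the OVX rats. OVX 5 was the lowest OVX rat and lay just above GDX 1, the highest of the males. The log2 fold change was -0.86 (SE 0.16 and adjusted p = 0.0436), and the call was lost without GDX 2, 4, 5 or 6 or OVX 1, 2 or 6 (adjusted p from 0.104 to 0.15) and with the rat number as a block (0.222).

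Igfbp3 (ENSRNOG00000061910), a secreted protein that binds insulin-like growth factors, had 2.59, 4.44, 7.01, 7.38 and 6.06 CPM in GDX 1, 2, 4, 5 and 6. In OVX rats it had 8.02, 12.6 and 16.4 CPM as the lowest, median and highest value, with no overlap and a log2 fold change of -1.16 (SE 0.23 and adjusted p = 0.0638). The call was lost without GDX 2 or 6 or OVX 1, 3, 5 or 6 (adjusted p from 0.123 to 0.161), with the rat number as a block (0.343) and in the fit of all 22 rats (0.212). Nup210l (ENSRNOG00000055790), related to a nuclear pore protein, had 0.199, 0.404, 0.472, 1.06 and 0.521 CPM in GDX rats. In OVX 1, 2, 3, 4, 5 and 6 it had 18.9, 21.8, 40.0, 1.45, 0.32 and 48.8 CPM. OVX 1, 2, 3 and 6 were thus far above the males, OVX 4 was near them and OVX 5 lay within their range, and each of the 11 intact rats was at 0.604 CPM or less. Its log2 fold change was -5.35 (SE 1.00 and adjusted p = 0.0464), and the call was lost without GDX 2, 4, 5 or 6 (adjusted p from 0.11 to 0.161). Nup210l had passed the filter on low counts by the OVX rats alone, with 1 of 5 GDX rats over the filter's level.

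Pkp4 (ENSRNOG00000005504), a plakophilin of cell junctions, had 1020, 1101, 1064, 1031 and 1056 CPM in GDX 1, 2, 4, 5 and 6 and 853, 915 and 947 CPM as the lowest, median and highest of the OVX rats. The groups did not overlap, and the log2 fold change was 0.22 (SE 0.04 and adjusted p = 0.0464). Intact males had 847 ± 37.2 CPM (SD, n = 5) and intact females 936 ± 50 CPM (SD, n = 6), a log2 fold change of -0.14 (SE 0.04 and adjusted p = 0.103). Plekhb1 (ENSRNOG00000018627), a membrane-bound protein with a pleckstrin homology domain, had 748, 800, 870, 880 and 771 CPM in GDX rats and 638, 683 and 710 CPM as the lowest, median and highest of the OVX rats. It was higher in each GDX rat than in each OVX rat, with a log2 fold change of 0.26 (SE 0.05 and adjusted p = 0.0471). Trps1 (ENSRNOG00000024998), a GATA-type transcriptional repressor, had 74.9, 79.7, 79.1, 83.5 and 87.4 CPM in GDX rats and 65.8, 69.0 and 72.3 CPM in the same order of OVX values. It was likewise separate, with a log2 fold change of 0.23 (SE 0.04 and adjusted p = 0.0483). The call was lost for Pkp4 without GDX 2, 4 or 6 or OVX 1 (adjusted p from 0.111 to 0.142) and for Plekhb1 without GDX 4 or 5 or OVX 1, 4 or 6 (0.111 to 0.159). For Trps1 it was lost without GDX 4, 5 or 6 or OVX 1, 2, 5 or 6 (0.106 to 0.167). With the rat number as a block the adjusted p were 0.245 for Pkp4, 0.236 for Plekhb1 and 0.236 for Trps1.

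**Figure D2:**
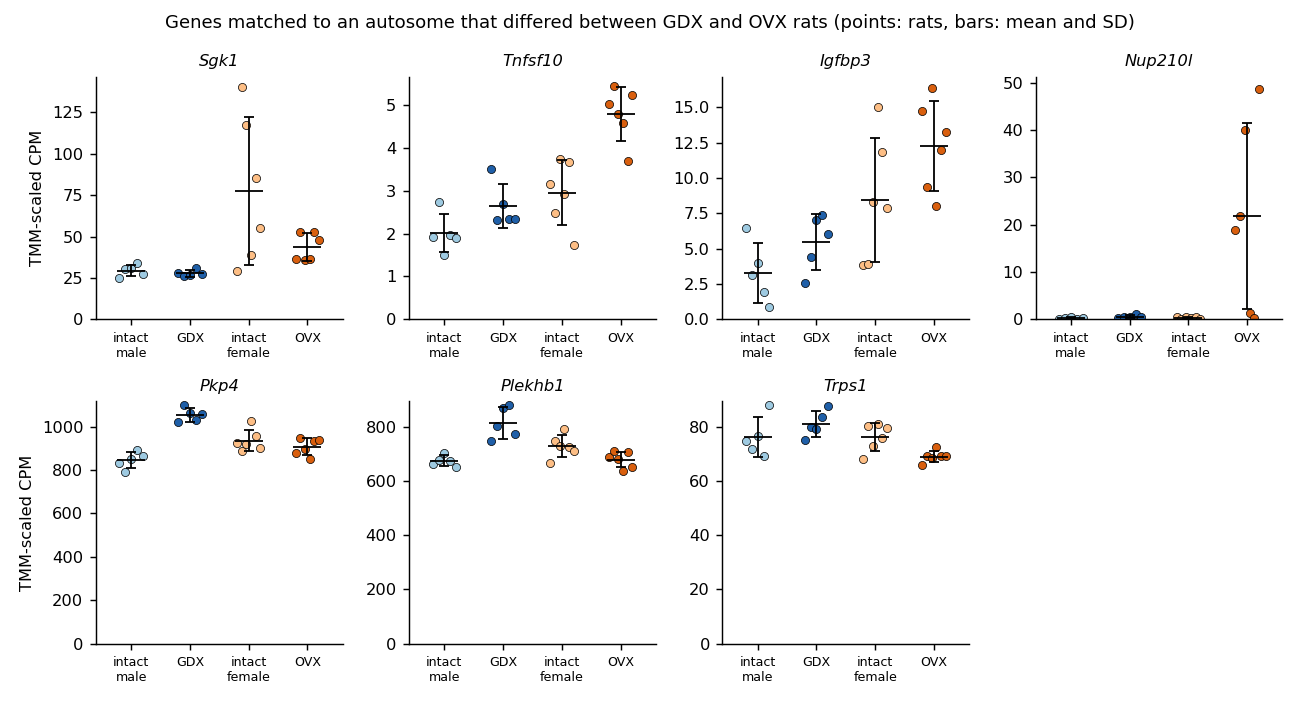
Levels of 7 called genes placed on autosomes in each rat, as CPM scaled by TMM factors on the vertical axes from 0, for intact males, GDX, intact females and OVX rats on the horizontal axes. Points are rats and bars are the mean with SD, and Nup210l, at 0.32 to 48.8 CPM in OVX rats, is the gene of the 7 in which GDX and OVX rats overlap.

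A further 8 called genes fell outside the rule for named genes and are named after their values were seen. Ddx17, an RNA helicase, Sypl1, a vesicle membrane protein, Zcchc7, a cofactor of nuclear RNA decay, and AABR07046961.1 were higher in GDX rats, with log2 fold changes from 0.20 to 0.36. Zcchc7 separated the 10 males from the 12 females, with at least 45.3 CPM in each male and at most 44.9 CPM in each female. Rapgef4, a cAMP-activated exchange factor for Rap, Abat, the transaminase that breaks down GABA, and the transcriptional regulators Tcf20 and Zfp423 were lower in GDX rats. Their log2 fold changes ran from -0.25 for Abat to -0.19 for Tcf20. These 8 had adjusted p from 0.0591 (Ddx17) to 0.0967 (AABR07046961.1). Each lost the call in between 7 and 10 of the 11 fits without 1 rat (adjusted p from 0.101 to 0.241). All 8 lost it without GDX 5, GDX 6, OVX 1 or OVX 5 and with the rat number as a block, and some of them lost it without each of the other 7 rats. Tcf20, Zfp423 and AABR07046961.1 also lost it with no filter on low counts. These genes and Abat lost it with the RNA integrity number (RIN) as a term. Rapgef4 and AABR07046961.1 lost it in the fit of all 22 rats, and AABR07046961.1 with zeros left out before the fit.

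Glucocorticoids come from the adrenal gland and act through a receptor found in most cells. Of 17 tested genes known to respond to them, 1 was called, Sgk1, lower in GDX rats, where 0.0995% of all tested members were called lower. Sgk1 (ENSRNOG00000011815), a kinase named for its induction by serum and glucocorticoids, had 27.7, 25.9, 26.9, 31.3 and 27.6 CPM in GDX 1, 2, 4, 5 and 6. In OVX rats it had 35.9, 42.3 and 53.0 CPM as the lowest, median and highest value. Each OVX rat was above each GDX rat, and the log2 fold change was -0.65 (SE 0.11 and adjusted p = 0.0173). The call held without any 1 rat, with an adjusted p of at most 0.0811, and was lost in the fit of all 22 rats (adjusted p = 0.386). Intact males had 29.5 ± 3.48 CPM (SD, n = 5) and intact females 77.7 ± 44.6 CPM (SD, n = 6). Intact females 1 and 4, of the shorter fragment class, had 29.1 and 39.0 CPM, and intact females 2, 3, 5 and 6, of the longer class, had 140, 117, 85.3 and 54.9 CPM. The log2 fold change was -1.39 (adjusted p = 0.0343) over all intact rats and -0.08 (adjusted p = 0.862) in the shorter class.

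In this list, 13 of 17 genes were negative (76.5%, against 50.1% of all tested members) and 7 had an unadjusted p under 0.05 (41.2%, against 9.33%), all 7 negative. The list median was -0.19, beside 0.00 over all members. Ddit4, an inhibitor of mTOR signalling, had 28.9 ± 2.29 CPM (SD, n = 5) in GDX rats and 37.2 ± 4.36 CPM (SD, n = 6) in OVX rats, a log2 fold change of -0.36 (adjusted p = 0.14). Nfkbia, the inhibitor of NF-kappaB, had 12.8 ± 2.23 against 18.7 ± 2.88 CPM, a log2 fold change of -0.54 (adjusted p = 0.14). Tsc22d3, the most abundant of the list and a mediator of glucocorticoid effects on immune cells, had 89.9 ± 4.41 against 93.8 ± 5.99 CPM, a log2 fold change of -0.06 (adjusted p = 0.77). The mean log2 CPM of the list was 3.32 ± 0.09 in GDX rats (3.23 to 3.44) and 3.51 ± 0.08 in OVX rats (3.39 to 3.62), with some overlap. DESeq2 and edgeR's likelihood ratio and exact tests each called Sgk1, Ddit4 and Nfkbia of the list, where they called 124 (0.823%), 85 (0.564%) and 83 (0.55%) of all tested members. In intact rats the list median was -0.52 and 8 of 17 genes were called lower in males (47.1%, against 2.56% of all tested genes). In the shorter fragment class alone, with 2 rats of each sex, the list median was -0.04. There the mean log2 CPM of the list was 3.19 in both intact males and 3.21 and 3.46 in intact females 1 and 4. In the longer class it ran from 2.96 to 3.18 in intact males and from 3.62 to 4.19 in intact females.

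**Figure D3:**
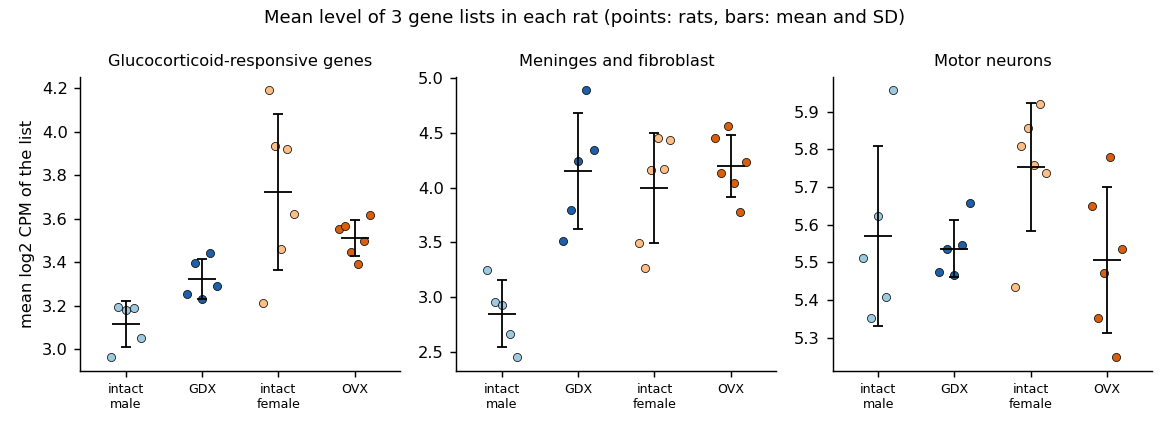
Mean log2 CPM of 3 gene lists in each rat on the vertical axes, for intact males, GDX, intact females and OVX rats on the horizontal axes. Points are rats and bars are the mean with SD. The glucocorticoid-responsive list lies between 3.23 and 3.44 in GDX and between 3.39 and 3.62 in OVX rats, while the ranges of the 2 groups overlap widely for the meninges and fibroblast list and for the motor neuron list.

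The same contrast of the sexes in intact rats shares no animal with that of GDX and OVX rats. There 599 of 14937 genes differed (4.01%), 216 higher in males (1.45%) and 383 lower (2.56%). In the shorter fragment class alone, with 2 rats of each sex, 34 differed. The count was 352 without intact male 1, 385 without intact male 5, 252 with the rat number as a block and 23 with the meninges and fibroblast level as a term, the last chosen after seeing the data. Of the 29 genes called between GDX and OVX rats, 28 were tested in intact rats, 22 had the same sign there and 12 were called there, all 12 with the same sign. These 12 are 41.4% of the 29 and 2% of the 599. Without the 5 genes that passed the filter through 1 group, 19 of 24 had the same sign and 9 were called there (37.5% of the 24). The 12 are the 5 X-linked genes, AC241873.1, AC239701.1, LOC680227, AABR07041096.1, AABR07046961.1, Zcchc7 and Sgk1. The log2 fold changes of the X-linked genes in GDX against OVX and in intact rats were -0.57 and -0.65 for Eif2s3, -0.61 and -0.62 for Pbdc1, -0.53 and -0.67 for Kdm6a, -0.35 and -0.34 for Kdm5c, and -0.34 and -0.39 for Ddx3x. Of the genes called in intact rats, 591 were tested members, with a median size of the log2 fold change of 0.35 in intact rats and 0.09 between GDX and OVX rats. Their sign was the same in both contrasts for 59.1%, against 51.6% of all members tested in both.

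**Figure D4:**
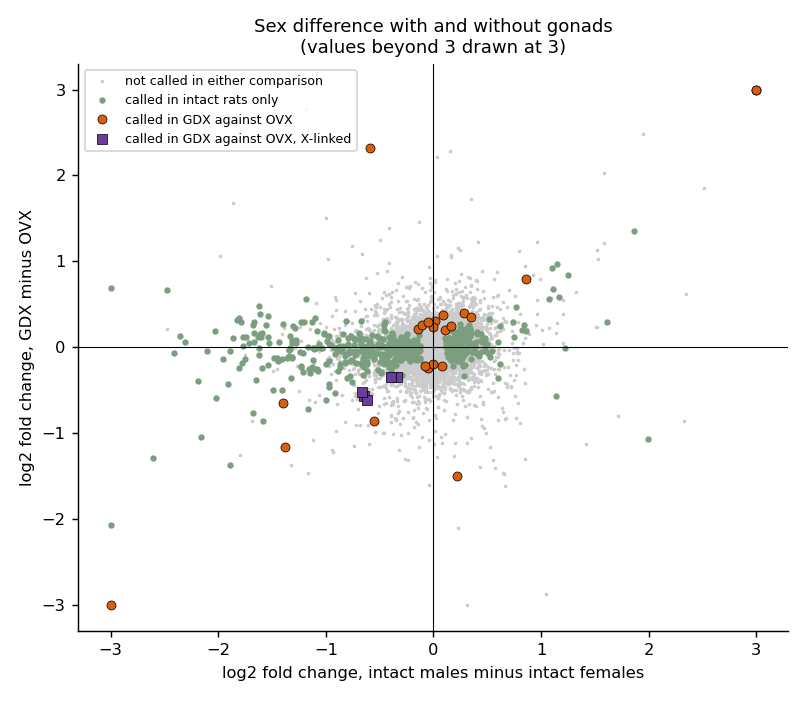
Log2 fold change of each member tested in both contrasts, with intact males minus intact females on the horizontal axis and GDX minus OVX on the vertical axis, values beyond 3 drawn at 3. Points are genes, marked by whether they were called at an adjusted p under 0.1, and the 5 called X-linked genes lie near the diagonal, from -0.61 to -0.34 on the vertical axis, while most genes called in intact rats alone lie near 0 on it.

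Whether the sex difference itself differed between gonadectomized and intact rats was tested over all 22 rats, which this test shares with the contrasts described. It called 18 of 15562 genes (0.116%), with Pkp4 and Plekhb1 among the 29. The sex difference of Pkp4 was higher by 0.36 on the log2 scale in gonadectomized rats (SE 0.06 and adjusted p = 0.0179) and that of Plekhb1 by 0.37 (SE 0.06 and adjusted p = 0.0414). For the 5 X-linked genes the change lay between -0.01 (Kdm5c) and 0.14 (Kdm6a), with adjusted p of at least 0.643, and for Sgk1 it was 0.75 (SE 0.38 and adjusted p = 0.451). The count of 18 was 243 with DESeq2, 5 in the shorter fragment class and 0 with the rat number as a block. It ran from 1 without GDX 5 to 275 without GDX 1. It stayed within a factor of 1.5 when intact male 1, OVX 1 or OVX 3 was left out, and leaving out any other rat moved it further.

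Receptors and enzymes of the steroid hormones did not pass the test between GDX and OVX rats. Of 14 tested receptors and their co-chaperones 0 were called by edgeR's quasi-likelihood test, 1 had an unadjusted p under 0.05 (7.14%, against 9.33% of all tested members), and 0 were called by DESeq2 or by edgeR's other 2 tests. Their largest log2 fold change in size was 0.20, with a median SE of 0.09 and a list median of -0.02. The estrogen receptor gene Esr1 had 1.88 ± 0.379 CPM (SD, n = 5) in GDX rats and 1.70 ± 0.391 CPM (SD, n = 6) in OVX rats, and the progesterone receptor gene Pgr 4.97 ± 1.04 and 4.82 ± 0.659 CPM. Of 18 tested genes of steroid synthesis and clearance 0 were called by any of the 4 tests and 3 had an unadjusted p under 0.05 (16.7%, against 9.33%), with a largest size of 0.40 (Tspo), a median SE of 0.10 and a list median of 0.02. Srd5a1, a steroid 5-alpha-reductase, had 52.2 ± 3.95 and 53.0 ± 3.94 CPM.

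The tissue expressed the markers of ventral cord in both groups. Of 19 tested motor neuron genes 0 were called by edgeR or DESeq2 (against 0.192% and 0.823% of all tested members), and 0 had an unadjusted p under 0.05 (against 9.33%), with a median log2 fold change of 0.02. Chat, which makes acetylcholine, had 35.8 ± 4.21 CPM (SD, n = 5) in GDX rats and 35.0 ± 7.47 CPM (SD, n = 6) in OVX rats, and Slc18a3, which loads it into vesicles, had 41.3 ± 5.19 and 41.3 ± 7.35 CPM. The astrocyte gene Gfap had 3984 ± 319 and 3692 ± 272 CPM (adjusted p = 0.58), and the myelin gene Mbp 13088 ± 763 and 12391 ± 822 CPM (adjusted p = 0.669). The microglia list had 15 tested members, of which 0 were called by edgeR or DESeq2 and 2 had an unadjusted p under 0.05 (13.3%, against 9.33% of all tested members), and its median was 0.02.

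The lists in which edgeR's quasi-likelihood test called 0 genes, with that of Y-linked genes left out, were 27. They include the motor neuron, microglia and both steroid lists and hold 417 different tested genes. As the lists were picked for having 0 called, the 0 of 417 is no separate result, and the choice bears on the counts that follow. Among the 417 genes, 40 had an unadjusted p under 0.05 (9.59%, against 9.33% of all tested members). DESeq2 called 3 (0.719%, against 0.823%), and edgeR's likelihood ratio and exact tests called 2 each (0.48%, against 0.564% and 0.55%), so that these counts are near the shares over all members. The 3 were the histocompatibility genes RT1-S3 and RT1-T24-3 and Olig1, a transcription factor of oligodendrocyte precursors, of which the first 2 were also called by the other 2 tests, and they are named after their values were seen. The 31 interferon-stimulated genes had a median of -0.10, with 24 negative (77.4%, against 50.1% of all tested members) and 4 at an unadjusted p under 0.05 (12.9%, against 9.33%), and the median was 0.27 in intact rats.

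Several lists whose median was far from 0 in intact rats had one near 0 between GDX and OVX rats, a difference that was not tested for the lists. The 26 tested genes of meninges and fibroblasts had a median log2 fold change of 0.01 between GDX and OVX rats and of -1.23 in intact rats, where 20 of 25 were called lower in males (80%, against 2.56% of all tested genes). In the shorter class alone the median was -1.27. With the mean level of this list as a term, 23 genes were called in intact rats in place of 599. That level did not overlap between the intact sexes, at 2.45 to 3.25 in males and 3.26 to 4.45 in females. The term therefore cannot be told apart from sex there, and no conclusion is drawn from the fall to 23. Between the other 2 groups the level was 4.15 ± 0.53 in GDX rats (3.51 to 4.89) and 4.20 ± 0.29 in OVX rats (3.77 to 4.56). Ptgds, the most abundant gene of the list and the prostaglandin D2 synthase of the meninges, had 757 ± 372 and 735 ± 183 CPM (adjusted p = 0.975). The 6 tested Schwann cell genes had medians of -0.06 and -1.31 in the same order, and the 17 immediate early genes of -0.01 and -0.25. The 18 circadian genes had medians of -0.07 and -0.19. Between GDX and OVX rats 13 of them were negative (72.2%, against 50.1% of all tested members) and 4 had an unadjusted p under 0.05 (22.2%, against 9.33%), with a mean log2 CPM of 4.82 ± 0.06 (SD, n = 5) and 4.89 ± 0.04 (SD, n = 6). For 4 genes of lymphocytes and granulocytes the median was 0.75, with 0 called by edgeR or DESeq2 and 0 at an unadjusted p under 0.05 (against 9.33% of all tested members).

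**Figure D5:**
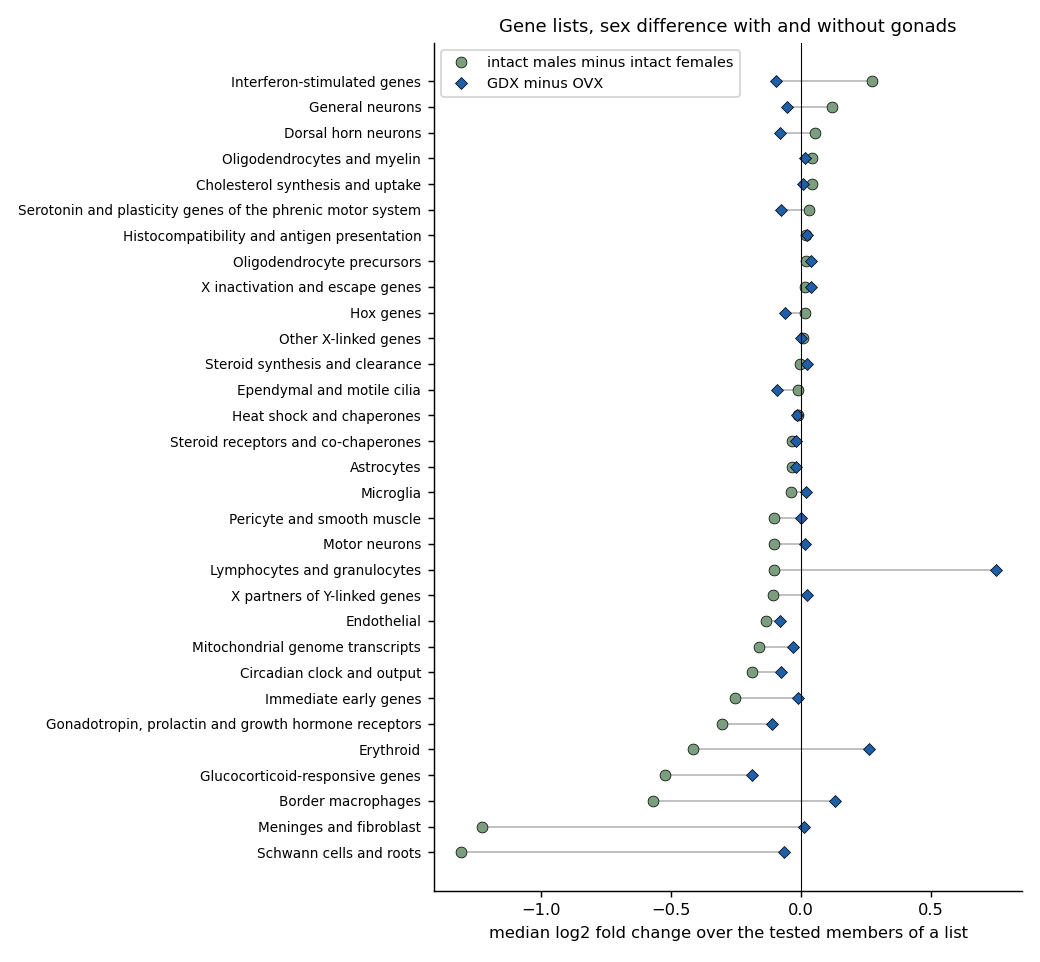
Median log2 fold change over the tested members of each gene list with more than 1 tested member on the horizontal axis, for GDX minus OVX and for intact males minus intact females, with the lists on the vertical axis. Points are list medians and grey lines join the 2 of a list. Most GDX minus OVX medians lie near 0, and the list of lymphocytes and granulocytes, with 4 genes tested there, lies at 0.75.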

How the data were processed

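RNA-seq libraries of ventral cervical spinal cord from 22 rats were used. The authors deposited raw counts per Ensembl gene of the build Rnor_6.0 for 1 library per rat, without normalization. The methods name Trimmomatic, Hisat2, featureCounts and a SMARTer kit, while the submitters' processing notes name TopHat2 2.0.13, Subread and Truseq protocols, and strand and multi-mapping settings are not given. No column was left without a rat.

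Log2 fold changes and CPM were computed here with R 4.3.3 and edgeR 4.0.16 from these counts. Genes were kept by filterByExpr, scaled by TMM factors and tested with glmQLFit and glmQLFTest, with Benjamini-Hochberg adjustment over all genes kept, and called at an adjusted p under 0.1. The 6 kept genes at 0 in one group were in the fit. The change of the sex difference was a contrast of 4 group means over 22 rats. Log2 CPM of lists had a prior count of 2. Depth and expressed genes were compared by two-sided exact permutation tests. Bounds used a floor of 3 reads over a group, and intervals were exact 95% binomial intervals. The counted reads per library, 12371756 to 17571887, limit what can be seen in genes of few reads.

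Named genes were, among called members, the 10 with the smallest p and the 5 with the largest fold change in each direction, the tested genes of the lists of Y-linked genes, of their X-linked partners, of X inactivation and escape and of steroid receptors and synthesis, and for other lists up to 4 called members and the most abundant one, with the 5 smallest p of the change of the sex difference. Values of 2 genes that this rule names are not given. Members and lists were chosen with earlier results of these data known, and lists are described by counts and medians without a test. Chromosomes, promoters and motifs were taken by symbol from RefSeq tables of GRCr8.

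Alternatives were DESeq2 1.42.0, edgeR's likelihood ratio and exact tests, RLE factors, no filter, a filter at 1 CPM, zeros left out before the fit, all 22 rats, RIN, the meninges and fibroblast level or the rat number in the model, each rat left out in turn, unadjusted p, and the library class. Those chosen after seeing the data were the meninges term for intact rats, the split of calls by chromosome, and expressed genes with each rat left out. The pipeline was tested on simulated counts of GDX and OVX rats over 14956 genes, where 71.6% of genes changed by 0.5 on the log2 scale, 94% of those changed by 1 and 100% of those changed by 2 were called, with 6.84% false calls.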

Additional observations from a re-analysis of the deposited data

Results flagged for a closer look

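Rats whose value stood apart within their own group were sought by Dixon's 95% criterion. It was met in 15 of 278 groups (5.4%), and by chance about 1 in 20 would meet it. Among the called genes, AC241873.1 had 0.0557 CPM in OVX 4 and 0 in the other OVX rats, and AC239701.1 had 0.115 CPM in OVX 1 and 0 in the others. AABR07000402.1 had 11.7 CPM in GDX 2, where the other GDX rats had 5.41 to 7.02, and 43.5 CPM in OVX 3, where the others had 12.5 to 22.4. Zcchc7 had 44.2 CPM in OVX 2 against 38.9 to 40.5. Of genes not called, Rlim stood at 9.19 CPM in OVX 3, with 0.468 to 1.42 in the rest, and Slco3a1 at 41.6 CPM in the same rat, with 45.4 to 46.2 in the rest. Cry2 had 89.3 CPM in OVX 4 against 81.2 to 83.4. In OVX 5, Cd4 had 16.2 CPM against 19.4 to 21.2 and Srd5a1 had 45.5 CPM against 53.3 to 56.8. Cyp2d4 had 14.5 CPM in GDX 4 against 17.9 to 18.9, and Hsd17b10 had 12.9 CPM in GDX 1 against 16.3 to 17.6. The mean log2 CPM of the microglia list was 3.75 in OVX 4 against 3.95 to 4.05. That of the list of serotonin and plasticity genes was 4.09 in GDX 2 against 4.05 to 4.06, and 4.22 in OVX 4 against 4.11 to 4.13.

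In 6 named genes edgeR's test over all 22 rats called a change of the sex difference between gonadectomized and intact rats. On the log2 scale the change was 0.36 for Pkp4 (adjusted p = 0.0179), 0.37 for Plekhb1 (0.0414) and -0.31 for Slco3a1 (0.0735). It was 0.55 for Rgma (0.063), 3.15 for Slc26a7 (0.063) and 1.36 for Sult1a1 (0.0973). Slc26a7 was low, at 0.151 to 0.371 CPM in intact males. Over all genes this test made 18 calls, 5 in the shorter fragment class, 0 with the rat number as a block and 1 without GDX 5. No cause was tested for any of these values.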

How the results depend on the processing

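Between GDX and OVX rats, 29 members were called. The count was 124 with DESeq2, 85 with the likelihood ratio test, 83 with the exact test, 55 with all 22 rats in 1 fit, 166 with the meninges and fibroblast level as a term, 18 with the rat number as a block and 2433 at an unadjusted p under 0.1. Without 1 rat it ran from 17 (OVX 1) to 38 (GDX 1). In the other alternatives it was within 1.5 times, from 25 with RIN as a term to 42 with no filter. Of the 29, 14 were called in each of the 11 fits without 1 rat, or 10 of 24 without the genes that passed the filter through the group where they are high. Over the alternatives run for called genes, the call was kept 499 times and lost 139 times, with 0 changes of sign, and of the other genes named by the rule 0 became called in 1690 comparisons. Of genes named after their values were seen or as part of a list, Ddit4, Nfkbia, RT1-S3 and RT1-T24-3 were called by DESeq2 and by the likelihood ratio and exact tests, and Olig1 by DESeq2. Of 403 list medians, 401 moved by less than the spread between rats. The rat numbers carry no known pairing, and the fit with them as a block between GDX and OVX rats left out OVX 3. Fits with fewer rats have fewer degrees of freedom.

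Between intact rats 599 genes were called, 34 with the shorter class only and 252 with the rat number as a block. With the meninges and fibroblast level as a term, chosen after seeing the data, there were 23. The intact sexes did not overlap in that level, so the fit cannot separate it from sex. Without 1 rat the count of 599 ran from 352 (intact male 1) to 777 (intact female 1). The change of the sex difference had 18 genes, 243 with DESeq2, 5 with the shorter class only, 0 with the rat number as a block, and from 1 (GDX 5) to 275 (GDX 1) without 1 rat. Differences in counted reads and in expressed genes were not called in any alternative run. The cause of these shifts was not tested.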

Other observations

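Eno2, the neuronal form of enolase, was noticed after its values were seen. It had 29.2 CPM in GDX 5 and 2.26, 2.37, 2.29 and 2.28 CPM in GDX 1, 2, 4 and 6, with 1.56 to 2.85 CPM in OVX rats. Of the Y-linked genes, Usp9y had 44 reads over the GDX rats, 42 of them in GDX 6, and Uba1y had 22, with 0 reads in any female for either gene. The gene AY172581.24 had the most reads in each of the 22 libraries, with 13.5% to 17.9% of the counts in GDX rats and 12.7% to 16.7% in OVX rats (two-sided exact permutation p = 0.221).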
